A study of Mus musculus with 6 samples.

Results

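The genes described here make, move and sense amino acids: 5 regulators of the amino acid stress response, 19 enzymes of amino acid and folate metabolism and 16 amino acid transporters, 40 genes in all. They were taken from a list of gene names, chosen with earlier results of these data known. A probe set annotated to a single gene was found for 39 of the 40, and all 39 passed the filter on dim probe sets and are among the 17020 genes tested; Pycr1, a proline synthesis enzyme, had no such probe set. Expression was measured in chondrocytes of the growth plate, the cartilage at which long bones lengthen, taken from hindlimbs of mice at postnatal day 30, on 1 Affymetrix array per sample. There were 3 control samples and 3 samples from mice with a conditional mutation of Lkb1 (now named Stk11, a kinase that activates AMPK and its relatives), all on a mixed background of FVB, 129S6 and C57CL/6. The Cre driver of the mutation, the genotype of the controls and whether animals were pooled are not given in the sources used here.

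Cells that lack amino acids or meet other stress phosphorylate the translation factor eIF2, which slows most protein synthesis but raises translation of the transcription factor ATF4. ATF4 with a C/EBP partner then switches on genes for amino acid synthesis, for uptake and for the charging of tRNAs. Growth plate chondrocytes secrete large amounts of collagen, which is rich in glycine and proline, and ATF4 is known to act in both chondrocytes and osteoblasts.

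The site at which ATF4 and its C/EBP partners bind holds the core TGATGNAA, or TTNCATCA read on the other strand. Promoters of 33 of the 40 genes were at hand from RefSeq (assembly GRCm38.p6), each from 250 bases before to 50 after the start of the gene. The core was present on either strand in 9 of these 33 genes, against 4.51% of all 27025 genes with a promoter and 3.97% of all 32851 promoters of the same length. The list was drawn up to include ATF4 targets, so a higher share may follow from the choice of genes alone. The 250 bases before the start are printed first for 3 genes that fell in the mutants, with the core in capitals. Slc7a11 lies at chr3:50443614-50443863, Chac1 at chr2:119350992-119351241 and Asns at chr6:7693210-7693459; Chac1 is on the plus strand, the others on the minus strand, and each is written 5′ to 3′ along its gene.
Slc7a11: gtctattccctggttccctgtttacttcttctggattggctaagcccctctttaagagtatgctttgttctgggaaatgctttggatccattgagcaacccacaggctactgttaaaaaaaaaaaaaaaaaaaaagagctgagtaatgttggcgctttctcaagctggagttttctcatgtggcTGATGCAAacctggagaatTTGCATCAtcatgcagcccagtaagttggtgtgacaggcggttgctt
Chac1: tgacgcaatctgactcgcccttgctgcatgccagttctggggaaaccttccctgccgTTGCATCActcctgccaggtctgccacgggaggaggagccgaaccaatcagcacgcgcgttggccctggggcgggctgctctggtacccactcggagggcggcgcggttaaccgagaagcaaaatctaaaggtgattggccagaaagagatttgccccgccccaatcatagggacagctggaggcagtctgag
Asns: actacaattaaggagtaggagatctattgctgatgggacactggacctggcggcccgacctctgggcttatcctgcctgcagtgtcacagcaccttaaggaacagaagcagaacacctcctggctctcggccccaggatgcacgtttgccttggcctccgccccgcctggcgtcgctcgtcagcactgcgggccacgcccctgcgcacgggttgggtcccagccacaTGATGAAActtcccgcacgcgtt

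Counted from the start of the gene, the core began at positions -66 and -47 in Slc7a11, at -193 in Chac1 and at -23 in Asns. For comparison, 30 bases around the core are printed for the 4 genes with a match that were measured, were not called different and had a single match. They lie at chr2:152344028-152344057 (Trib3), chr7:126625562-126625591 (Nupr1), chr11:20332699-20332728 (Slc1a4) and chr19:43524689-43524718 (Got1), all on the minus strand.
Trib3: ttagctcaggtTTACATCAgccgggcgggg
Nupr1: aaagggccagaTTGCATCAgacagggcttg
Slc1a4: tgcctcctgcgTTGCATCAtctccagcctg
Got1: cattgcattggTTGCATCAtacaagcctcc
The other genes with a match were Slc7a7 and the unmeasured Pycr1. Of the measured genes with a promoter, 3 of the 11 called different and 5 of the 21 not called held the core. A match describes these letters only and is not a shown binding site. Promoters of Aldh1l2, Cth, Slc1a5, Slc38a1, Slc6a6, Slc7a3 and Slc7a5 were not analysed here.

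Levels are log2(intensity + 1), a scale on which 1 unit is a doubling and on which fold changes of dim genes are slightly understated. Differences are mutant minus control from limma, and a gene is called where its adjusted p (Benjamini-Hochberg over all 17020 genes) is below 0.05. The number of arrays limits the precision of each value, and the labels call the replicates biological without naming separate animals, so a p-value measures how these samples vary, which may be technical in part. The targeted gene, Stk11, fell by 1.67 (SE 0.22, limma adjusted p = 0.00387), from 8.68, 9.08 and 9.67 in the controls to 7.39, 7.51 and 7.52 in the mutants. Here and below the values of a group are in the order of replicates 1, 2 and 3. Whether its probes lie in the deleted part was not analysed here. Array medians of intensity lay between 82.4 and 90.5. All 10 chondrocyte markers were above background on every array, with a mean level of 11.66 to 11.80 in the controls and 11.56 to 11.66 in the mutants. Other cell types differed. Bone marrow markers (25 genes of red cell precursors, neutrophils and B cells) averaged 8.50, 9.18 and 9.89 in the controls but 6.08 to 6.34 in the mutants; 22 of these 25 were above background in all controls and 5 in all mutants. Stk11 rose over the controls in the same order, and its difference was -1.21 against control replicate 1 alone. Over all genes tested, 7.84% rose and 6.82% fell. Of the markers tested, 6 of 8 fibrous tissue, 7 of 9 endothelial and 7 of 9 macrophage genes rose, and 15 of 17 cell cycle genes fell. Of the rest, 1 of 10 chondrocyte markers fell and 9 of the 10 had a negative difference, 2 of 9 macrophage markers and 1 of 4 osteoblast markers fell, and 2 of 6 skeletal muscle and 2 of 4 adipocyte markers rose. Their part in the results below was not tested, and in such bulk samples fewer cells of a type and less RNA per cell cannot be told apart. Background here is the 95% point of 1035 probe sets of olfactory receptor genes, 6.40 to 6.73 by array.

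Of the 39 genes, 13 fell and 1 rose in the mutants, against 6.82% of all genes tested that fell, 7.84% that rose and 14.7% called in all. Because the list was chosen with earlier results of these data known, this comparison is not an independent test. The 13 were Ddit3, the enzymes Phgdh, Psat1, Mthfd2, Aldh1l2, Chac1 and Asns, and the transporters Slc7a1, Slc7a3, Slc7a11, Slc1a5, Slc38a4 and Slc6a9. Glul was the gene that rose. The groups did not overlap for 26 of the 39, with the mutants lower in 22 and higher in 4, where 36.7% of all genes were separate, 16.7% with the mutants lower and 20.0% with the mutants higher. The median difference was -0.19 over the 39 genes and 0.03 over all genes tested. Leaving out 1 array at a time, 7 genes kept their call in every such fit: Aldh1l2, Chac1, Asns, Slc7a11, Slc1a5, Slc38a4 and Slc6a9. The number called was 9 without control replicate 2, and 8, 7 and 8 without mutant replicates 1, 2 and 3.

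**Figure D1:**
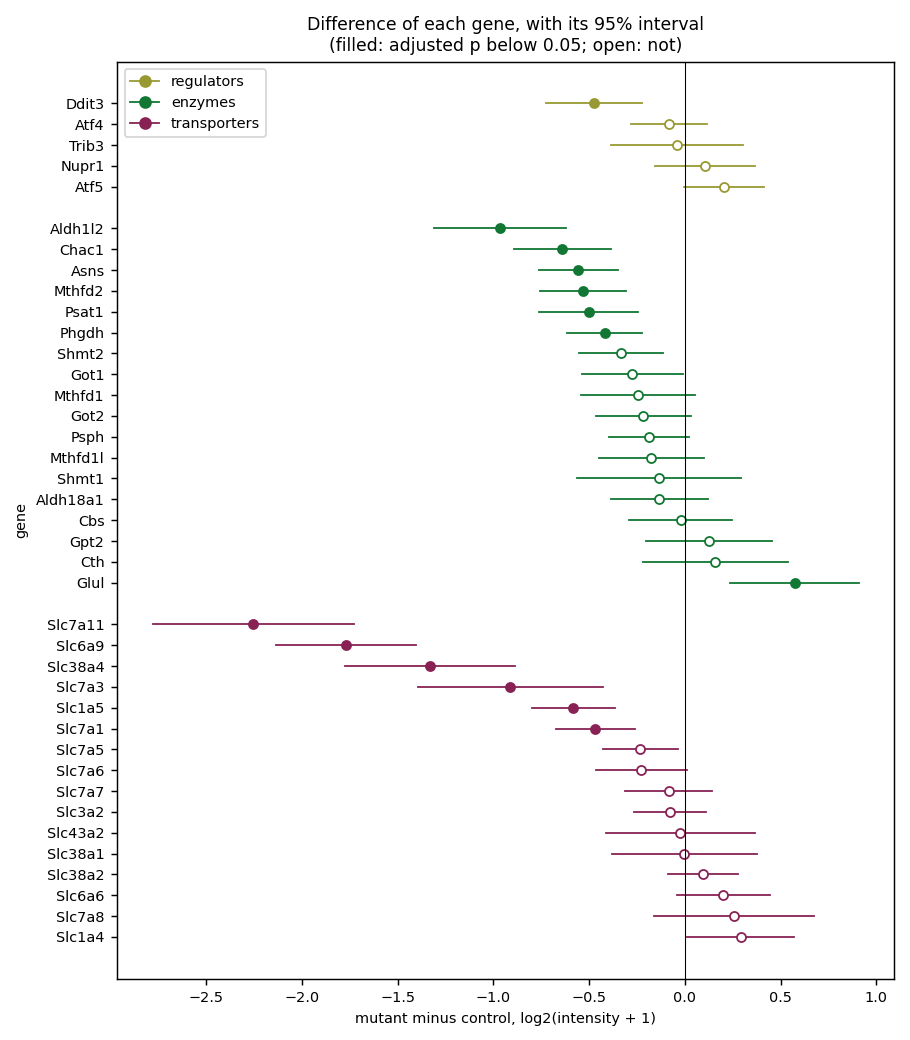
Difference between mutant and control (x axis, log2(intensity + 1)) for each of the 39 genes (y axis), coloured by class, with limma's 95% interval as a line; filled points have an adjusted p below 0.05. The 14 filled points lie left of 0 except Glul at 0.57, and the 3 farthest left are the transporters Slc7a11, Slc6a9 and Slc38a4.

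Of the 5 regulators only Ddit3 was called, 20.0% against 14.7% of all genes tested. The other 4 were not called, which does not show that they were unchanged. Atf4, the transcription factor at the head of the response, read 10.80, 10.76 and 10.77 in the controls and 10.60, 10.75 and 10.73 in the mutants. The mutants were all just below the controls, and the difference of -0.08 (95% interval -0.28 to 0.11) was not called (limma adjusted p = 0.57). ATF4 is controlled largely at translation, which these RNA levels do not measure. Ddit3, which encodes CHOP, a transcription factor that ATF4 induces and that promotes cell death under lasting stress, read 8.70, 8.48 and 8.47 in the controls and 7.99, 8.02 and 8.22 in the mutants. All mutants were below all controls, and Ddit3 fell by 0.47 (SE 0.11, limma adjusted p = 0.0265). That call ended without control replicate 2 or without any mutant replicate (adjusted p up to 0.102). Atf5, a relative of Atf4, had its mutants (8.60, 8.61 and 8.66) above its controls (8.52, 8.32 and 8.42) at a difference of 0.20 that missed the threshold (limma adjusted p = 0.179). Trib3, a pseudokinase that feeds back on ATF4 and CHOP, differed by -0.04 (95% interval -0.39 to 0.30), with the widest spread of the regulators among the controls (8.87, 9.18 and 9.43). Nupr1, a small stress-induced chromatin protein, differed by 0.10 (95% interval -0.16 to 0.37).

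Among the 18 enzymes measured, 6 fell and 1 rose, with a median difference of -0.23. That is 33.3% lower and 5.56% higher, against 6.82% and 7.84% of all genes tested. All 9 genes of serine, glycine and folate metabolism were lower in the mean of the mutants, as were 7657 of all 17020 genes. Of the 9, 4 were called lower, 44.4% against 6.82% of all genes. Serine is made from a glycolytic intermediate in 3 steps. Phgdh, the enzyme of the first step, read 7.44, 7.52 and 7.42 in the controls and 7.094, 7.037 and 6.997 in the mutants. Its groups were tight and apart, with SDs of 0.05 in each, and it fell by 0.42 (SE 0.08, limma adjusted p = 0.0167). Psat1, the aminotransferase of the second step, fell by 0.50 (SE 0.11, limma adjusted p = 0.0241), from 7.89, 7.80 and 8.11 to 7.31, 7.49 and 7.50. Psph, the phosphatase of the last step, was lower in every mutant array by 0.19 on average, without a call (limma adjusted p = 0.214). The Phgdh call ended without control replicate 2 or without any mutant replicate (adjusted p up to 0.0894), and the Psat1 call without any mutant replicate (up to 0.0924).

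The carbon that serine gives up to folate is handled by one set of enzymes in mitochondria and another in the cytosol. In the mitochondrial set, Mthfd2, a dehydrogenase and cyclohydrolase, read 10.104, 10.221 and 10.001 in the controls and 9.60, 9.49 and 9.64 in the mutants, 1.45-fold lower (difference -0.53, SE 0.10, limma adjusted p = 0.0117). Its adjusted p was 0.0572 without mutant replicate 2. Aldh1l2, which oxidises formyl-folate in mitochondria and yields NADPH, had the largest fall of the enzymes, from 8.69, 8.45 and 8.22 to 7.50, 7.30 and 7.66. This is 1.95-fold lower (difference -0.97, SE 0.15, limma adjusted p = 0.00613), and the lowest control was above the highest mutant. Shmt2, which splits serine in mitochondria, missed the threshold at a difference of -0.34 (limma adjusted p = 0.0529), although every mutant array (9.07, 9.01 and 9.16) was below every control array (9.53, 9.37 and 9.35). Mthfd1l, the last mitochondrial enzyme of the set, differed by -0.18 (limma adjusted p = 0.378). The cytosolic enzymes were not called: Mthfd1 differed by -0.25 (95% interval -0.54 to 0.05) and Shmt1 by -0.14 (95% interval -0.57 to 0.29). Shmt1 had the widest control spread of all enzymes, at 6.33, 6.94 and 7.05, and was above background in 2 of 3 arrays of each group. It was lowest on the control with the least bone marrow signal, and Mthfd1 was highest (7.68) on the control with the most. The cell cycle markers averaged 8.60, 9.07 and 9.71 on the controls and 7.86 to 7.87 on the mutants.

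Asns, which makes asparagine from aspartate and glutamine and is a well known ATF4 target, was at 10.66, 10.59 and 10.62 in the controls. In the mutants it was at 10.08, 9.96 and 10.16, so the groups were far apart against their SDs of 0.04 and 0.10. The difference was -0.56 (SE 0.09), 1.47-fold lower, with a limma adjusted p of 0.0074. Chac1, an ATF4 and CHOP target that breaks down glutathione, read 10.82, 10.75 and 10.61 in the controls and 10.11, 9.93 and 10.21 in the mutants. Every mutant was again below every control, and it fell by 0.64 (SE 0.11, limma adjusted p = 0.00911). Glul, glutamine synthetase, went the other way. It read 10.25, 10.38 and 10.71 in the controls and 11.15, 10.83 and 11.07 in the mutants, a difference of 0.57 (SE 0.14, limma adjusted p = 0.0372). The control nearest the mutants was the array with the most marrow signal. The call of Glul held without control replicate 3 and ended without each other array (adjusted p up to 0.136). A second probe set of Glul differed by 0.83.

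The other enzymes were not called. Cth and Cbs, which route sulfur from methionine to cysteine, differed by 0.16 (95% interval -0.22 to 0.54) and -0.02 (95% interval -0.29 to 0.25), and Cbs was above background in 1 of 3 arrays of each group. Got1, the cytosolic aspartate aminotransferase, was lower in every mutant array by 0.28 on average (limma adjusted p = 0.153), and Got2, its mitochondrial partner, by 0.22 (limma adjusted p = 0.224), with -0.22 in its second probe set. Gpt2, the mitochondrial alanine aminotransferase, differed by 0.12. Aldh18a1, the enzyme that starts proline synthesis from glutamate, differed by -0.13 (95% interval -0.39 to 0.12). It was high on control replicate 1 (10.16), while the other controls (9.86 and 9.85) lay beside the mutants (9.81, 9.81 and 9.85).

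**Figure D2:**
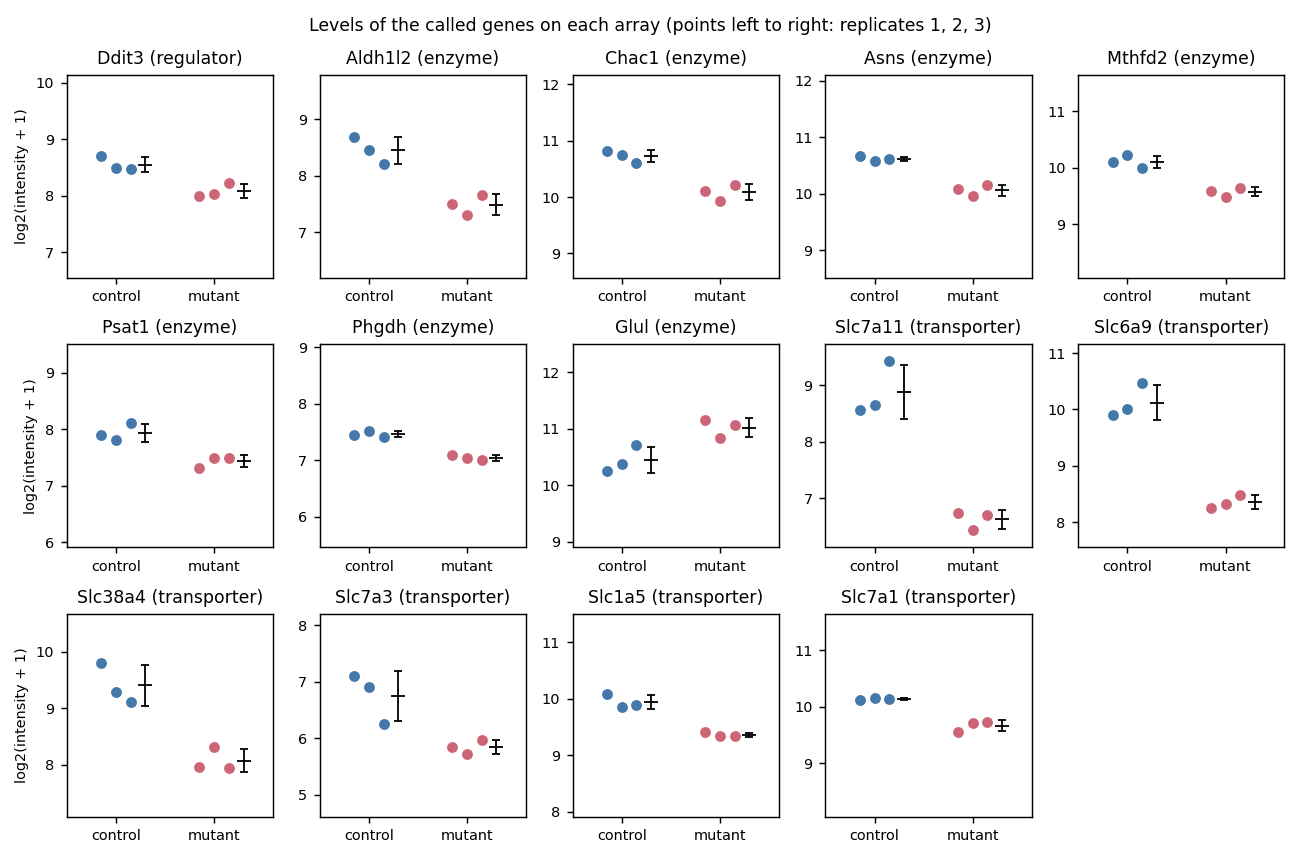
Level on each array (y axis, log2(intensity + 1); every panel spans the same range in log2 units) of the 14 genes called, in controls and mutants (x axis); points are replicates 1, 2 and 3 from left to right and the bar is mean ± SD. The groups are apart in all 14 panels, and the control points of Slc7a11 and Slc6a9 are highest in replicate 3 while those of Aldh1l2, Slc38a4 and Slc7a3 are lowest there.

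The transporters had larger falls than the enzymes at their extremes: 6 of 16 fell, none rose, and the median difference was -0.16. The share that fell was 37.5%, against 6.82% of all genes tested, of which 7.84% rose. Slc7a11 imports cystine in exchange for glutamate and so supplies cysteine for glutathione. It read 8.57, 8.65 and 9.43 in the controls and 6.74, 6.43 and 6.71 in the mutants. The difference of -2.26 (SE 0.23, limma adjusted p = 0.00126) is 4.77-fold lower and was the largest among the 39 genes. Because 1 of the 3 mutant arrays did not exceed the background, the size of this fall is limited by it. Slc6a9, a glycine transporter that supplies glycine for haem synthesis in red cell precursors and is also found in the nervous system, fell from 9.899, 10.004 and 10.467 to 8.25, 8.32 and 8.49. This is 3.41-fold lower (difference -1.77, SE 0.16, limma adjusted p = 0.000824). Both Slc7a11 and Slc6a9 were highest on control replicate 3, the array with the most bone marrow signal. The mean of 6 erythroid markers was 7.63, 8.85 and 9.92 in the controls, against 5.48 to 5.64 in the mutants, where none of the 6 exceeded the background on all arrays. Their part in these falls was not tested. Against control replicate 1 alone, the control with the least marrow signal, Slc7a11 was lower by a difference of -1.94 and Slc6a9 by -1.55.

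Slc38a4, which takes up neutral amino acids with sodium, ran the other way among the controls. It read 9.81, 9.30 and 9.11 in the controls and 7.96, 8.31 and 7.95 in the mutants, so its highest control was the one with the least marrow signal. It fell by 1.33 (SE 0.19), 2.52-fold, with a limma adjusted p of 0.00481, and its difference was -1.73 against control replicate 1 alone. Slc1a5, a sodium-dependent transporter of glutamine and other neutral amino acids, read 10.08, 9.86 and 9.89 in the controls and 9.40, 9.34 and 9.34 in the mutants. It fell by 0.58 (SE 0.09, limma adjusted p = 0.00755). Slc1a4, its close relative that carries alanine, serine and cysteine, was higher in every mutant array instead, by 0.29, without a call (95% interval 0.01 to 0.57, limma adjusted p = 0.156).

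Slc7a1 and Slc7a3 import the cationic amino acids arginine and lysine. Slc7a1 read 10.12, 10.15 and 10.13 in the controls, an SD of 0.01, and 9.55, 9.71 and 9.74 in the mutants. It fell by 0.47 (SE 0.09, limma adjusted p = 0.0137). Slc7a3 read 7.10, 6.90 and 6.25 in the controls, where control replicate 3 was at background, and 5.84, 5.72 and 5.96 in the mutants, all at background. Its fitted difference of -0.91 (SE 0.21, limma adjusted p = 0.0265) is therefore limited by the background; with the mutants set to the background point, the controls were at least 1.13-fold higher. The calls of both ended without control replicate 2 or without any mutant replicate, with adjusted p-values as high as 0.0576 for Slc7a1 and 0.0965 for Slc7a3.

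Several of the Slc7 transporters work only when paired with Slc3a2, a single-pass partner that brings them to the cell surface. Slc3a2 itself read 11.63, 11.65 and 11.71 in the controls and 11.55, 11.58 and 11.62 in the mutants, a difference of -0.08 (95% interval -0.27 to 0.11) that was not called. Of its 5 partners in the list, Slc7a11 fell, as above. Slc7a5, the main carrier of leucine and other large neutral amino acids, was lower in every mutant array (10.83, 10.87 and 10.93 against 11.05, 11.15 and 11.12) by 0.23 on average, without a call (95% interval -0.43 to -0.04, limma adjusted p = 0.109). Slc7a6, an exchanger of arginine for neutral amino acids, differed by -0.23 (limma adjusted p = 0.191). Slc7a7, of similar function, differed by -0.08, and Slc7a8, a second carrier of neutral amino acids, by 0.26 (95% interval -0.16 to 0.67), with 2 of 3 arrays above background in each group.

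The rest of the transporters were not called and had differences between 0.20 and -0.02. Slc38a2, a sodium-coupled neutral amino acid transporter that amino acid shortage induces, was higher in every mutant array (11.71, 11.65 and 11.68 against 11.60, 11.58 and 11.59) by 0.09 on average (95% interval -0.09 to 0.28). Slc38a1, a glutamine carrier, differed by -0.003, a value that turned positive under quantile normalisation and in 4 of the 6 fits that left out 1 array. Slc6a6, the taurine transporter, differed by 0.20 and Slc43a2, a carrier of leucine and its like, by -0.02.

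**Figure D3:**
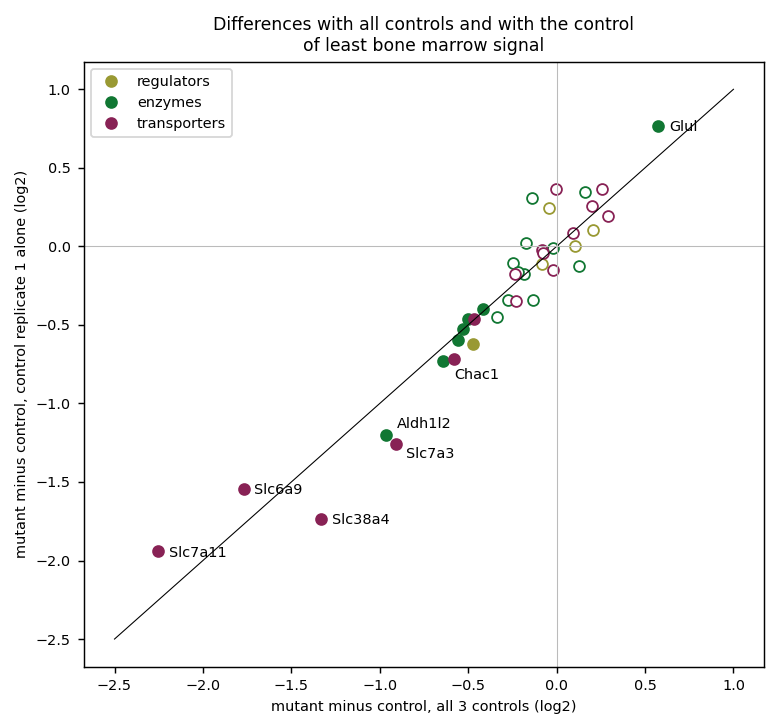
Difference between mutant and control with all 3 controls (x axis) and with control replicate 1 alone (y axis), both in log2 units, for the 39 genes; filled points are called, open points are not, and the line marks equal values. The 14 filled points lie near the line, with Slc7a11 and Slc6a9 slightly above it and Slc38a4, Aldh1l2 and Slc7a3 below.

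The differences were also taken against control replicate 1 alone, the control with the lowest mean of the bone marrow markers. That mean, 8.50, was still above the 6.08 to 6.34 of the mutants, so marrow signal differed in this comparison too and its part was not tested. The median difference of the 13 genes that fell was -0.72 in place of -0.58, and each of the 13 differed by less than 1.5 times from its value with 3 controls. Their sign could not change, since every control was above every mutant for all 13, and with a single control these values carry no p. Control replicate 1 is also 1 of the 3 controls, and a call favours controls that lie close together. Similar sizes were thus partly fixed in advance. Of the 13, 7 were highest on control replicate 1 and 3 on control replicate 3. Among the 25 genes that were not called, 20 kept their sign, and 9 stayed within 1.5 times of their value with 3 controls. Trib3 (0.25) and Shmt1 (0.31) were among those that changed it.

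Genes of the same pathways outside the 40 were taken from 6 further lists with 95 tested members, of which 8 rose and 8 fell. That is 8.42% in each direction and 16.8% called, near the 7.84% higher, 6.82% lower and 14.7% called of all genes tested. Of 18 aminoacyl-tRNA synthetases, the enzymes that charge tRNAs and of which many are ATF4 targets, 2 fell and none rose, 11.1% called against 14.7% of all genes. The difference was negative for 16 of the 18, against 7657 of all 17020 genes, with a median of -0.19. Vars, the valine enzyme, fell by 0.84 (SE 0.15, limma adjusted p = 0.0125) and Mars1, the methionine enzyme, by 0.39 (SE 0.08, limma adjusted p = 0.0195). Vars read 8.24, 8.20 and 8.75 in the controls, highest on the array with the most marrow signal. Against control replicate 1 alone the differences were -0.68 for Vars and -0.44 for Mars1. The Vars call ended without mutant replicates 1 or 3 (adjusted p up to 0.057), and the Mars1 call without control replicate 2 and without each mutant replicate (up to 0.0811). Of 15 genes for eIF2, its kinases, its phosphatase, its exchange factor, Impact and Gcn1, limma called none, against 14.7% of all genes. An unadjusted limma p was below 0.05 for 3 of the 15, and for 5024 of all 17020 genes. The smallest p belonged to Eif2ak1, the haem-regulated kinase, which read 8.08, 8.85 and 9.55 in the controls and 7.65 to 7.75 in the mutants (difference -1.13, limma adjusted p = 0.0543). Against control replicate 1 alone the Eif2ak1 difference was -0.38.

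Other partners and targets of ATF4 went both ways: of 13, 2 fell and 2 rose, 15.4% in each direction against 6.82% and 7.84% of all genes. Sesn2, a leucine sensor and stress-induced inhibitor of mTORC1, fell from 9.07, 9.02 and 8.83 to 8.35, 8.46 and 8.47 (difference -0.54, limma adjusted p = 0.0112), a call that ended without mutant replicates 1 or 3 (up to 0.0527). Eif4ebp1, a repressor of translation under mTORC1 control, fell by 0.38 (limma adjusted p = 0.0421), and its call held only without control replicate 3 among the fits that left out 1 array. Ddit4, another stress-induced inhibitor of mTORC1, rose instead, from 7.94, 7.89 and 7.87 to 8.54, 8.39 and 8.71 (difference 0.65, SE 0.10, limma adjusted p = 0.00734). Its groups were widely apart, and the call held with each array left out. Jdp2, a bZIP repressor, rose by 0.42 (limma adjusted p = 0.018); the call ended without control replicate 2 and without each mutant replicate (up to 0.0725).

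**Figure D4:**
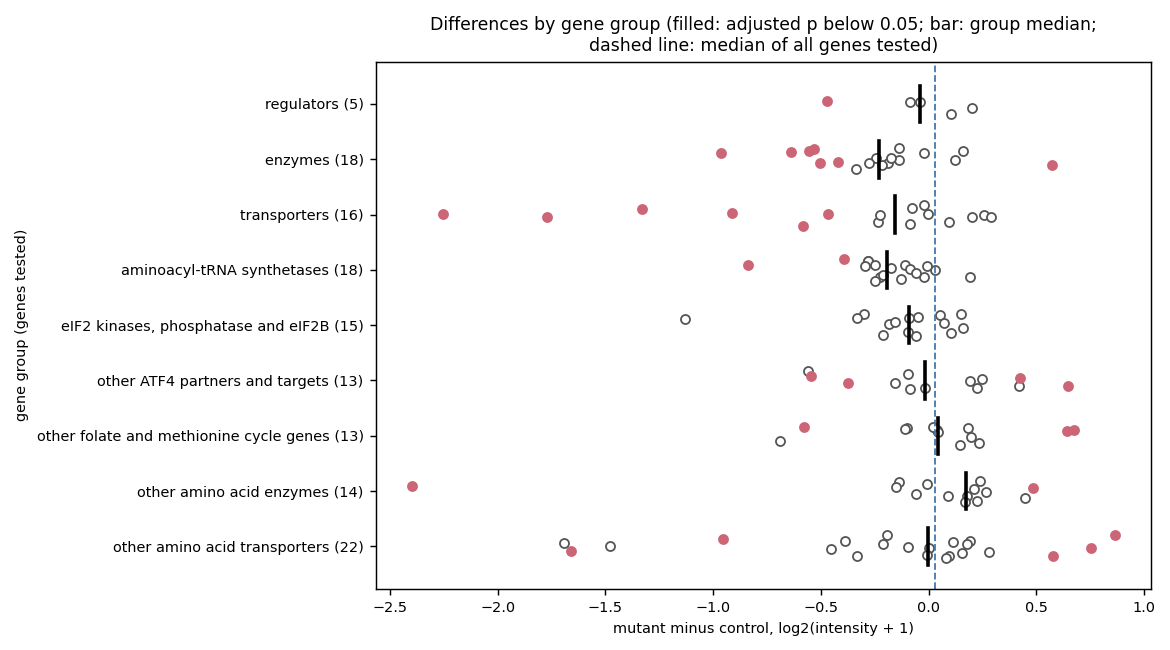
Difference between mutant and control (x axis, log2(intensity + 1)) for the tested genes of the 3 classes and of the 6 further lists (y axis, number of genes in brackets); filled points have an adjusted p below 0.05, bars are list medians and the dashed line is the median of all genes. The enzymes, transporters and aminoacyl-tRNA synthetases have medians of -0.23, -0.16 and -0.19, and the other amino acid enzymes 0.17.

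Among 13 other genes of the folate and methionine cycles, 2 rose and 1 fell, 15.4% and 7.69% against 7.84% and 6.82% of all genes. Aldh1l1, the cytosolic counterpart of Aldh1l2, rose by 0.68 (limma adjusted p = 0.0283) where Aldh1l2 fell, but from background in all controls and with 2 of 3 mutants above it, so that it was at least 1.21-fold higher in the mutants; its call held only without control replicate 1 among the fits that left out 1 array. Ggh, which trims glutamate tails from folates, rose by 0.64 (SE 0.12, limma adjusted p = 0.0116; 0.0502 without mutant replicate 1). Mat2b, the regulatory subunit of methionine adenosyltransferase, fell by 0.58 (SE 0.10, limma adjusted p = 0.00962; 0.0548 without mutant replicate 3).

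Of 14 other amino acid enzymes, 1 fell and 1 rose, 14.3% called against 14.7% of all genes. Arg2, the mitochondrial arginase that turns arginine into ornithine, read 8.16, 7.89 and 8.44 in the controls and 5.89, 5.76 and 5.63 in the mutants, all at background. The controls were at least 3.00-fold higher, with a fitted difference of -2.40 (SE 0.15, limma adjusted p = 0.00026), the same against control replicate 1 alone (-2.40). Csad, an enzyme of taurine synthesis, rose by 0.48 (limma adjusted p = 0.0162), and this call ended without mutant replicates 1 or 3 (up to 0.076). Of 22 other amino acid transporters, 3 rose and 2 fell, 13.6% and 9.09% against 7.84% and 6.82% of all genes. Slc1a3, a glutamate and aspartate transporter, fell from 7.45, 7.20 and 7.13 to background in all mutants, at least 1.61-fold (difference -0.95, SE 0.11, limma adjusted p = 0.0018). Slc16a10, a carrier of aromatic amino acids, read 7.24, 7.96 and 9.10 in the controls, in the order of the marrow markers, and 6.42 to 6.46 in the mutants, at least 2.88-fold lower (difference -1.66, limma adjusted p = 0.0329). Its difference was -0.80 against control replicate 1 alone, and its call ended without control replicate 2 and without each mutant replicate (up to 0.103). Slc6a17, a vesicular carrier of neutral amino acids, rose by 0.87 (SE 0.14, limma adjusted p = 0.00828), and Slc38a6, a relative of Slc38a2, by 0.75 (SE 0.15, limma adjusted p = 0.0149). The Slc6a17 call held with each array left out, and that of Slc38a6 ended without control replicate 2, mutant replicate 1 or mutant replicate 3 (up to 0.06).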

How the data were processed

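Per the labels' protocols, RNA was purified on columns and 300 ng per sample was turned into biotin-labelled cDNA. The authors deposited linear intensities of 35512 probe sets on 6 arrays; their summarisation and normalisation are not given in the sources used here. Genes were named through the platform annotation and RefSeq gene numbers (GRCm38.p6): 21789 probe sets had 1 gene, 1621 several, and 12102 were not listed. Values were transformed to log2(intensity + 1), the dimmest 25% of probe sets by mean were left out, and the probe set with the highest mean was kept per gene. The test was limma 3.58.1 (R 4.3.3), two-sided after eBayes moderation, with a call at an adjusted p below 0.05. Tested on simulated data with 200 changed genes among 17020, the fit called 22.8%, 78.2% and 95.8% of genes changed by 0.5, 1 and 2 log2 units. In the data themselves 2496 genes were called, which makes the cut on p looser, so these shares may be too low for them. Same-numbered samples were checked for pairing and showed no clear pairing. Alternatives varied the normalisation, filter, probe set rule, pseudocount, variance trend, array weights, replicate block and the arrays used. The 40 genes, the lists and the alternatives were chosen with earlier results of these data known. Of each further list, up to 2 called genes in each direction with the largest change are named, or else the gene with the smallest p.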

Additional observations from a re-analysis of the deposited data

How the results depend on the processing

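Quantile normalisation, median centring, no filter, a filter at the median (which drops Slc7a3), averaging the probe sets of a gene, a pseudocount of 16 and an intensity trend called 14 to 16 of the 39 genes. Array weights did not converge and called 8006 genes in all, 23 of the 39, 2 regulators, 11 enzymes, 10 transporters and 56 genes of the further lists. The numbers in the labels showed no clear pairing of the samples (correlations of deviations 0.08, 0.21 and -0.08 for numbers 1, 2 and 3). With the replicate number as a block 13 of the 39 were called, and 0 regulators, as Ddit3 had a limma adjusted p of 0.06. Leaving out 1 array gave 936 to 3282 calls over all genes, 7 to 15 of the 39, 0 to 1 regulators, 3 to 8 enzymes, 4 to 6 transporters and 5 to 21 genes of the further lists. Differences of genes that were not called changed sign as follows. Slc38a1 was 0.0055 with quantile normalisation, 0.060 with the mean of probe sets and -0.19 to 0.094 with 1 array left out. Slc43a2 was 0.11 with array weights and -0.18 to 0.14 with 1 array left out. With 1 array left out Trib3 was -0.18 to 0.093, Shmt1 -0.36 to 0.0025 and Cbs -0.14 to 0.045. No called gene changed sign in any fit. In the fits that left out arrays it could not, since the groups of all 14 called genes did not overlap. With 3 arrays per group, small differences were mostly below what the test could call. On simulated data the fit called 22.8% of genes changed by 0.5 log2 units, a share that may be too low for these data. Shmt2, at a difference of -0.34, was not called. Signal near background limits the sizes for Slc7a11, Slc7a3, Shmt1, Slc7a8 and Cbs.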
